A study of Mus musculus with 6 samples.

Results

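The miRNAs described here belong to the miR-297, miR-466, miR-467 and miR-669 families of the mouse, most of which lie together in an intron of the gene Sfmbt2. They were chosen by name alone, as every entry of the miRNA table whose name begins with one of these families, followed by an optional letter and arm. The rule found 54 of the 1506 entries, of which 4 are miR-297, 21 miR-466, 9 miR-467 and 20 miR-669. An entry is 1 mature miRNA, and 2 of the 54 also carry a precursor number in the name (miR-669d-2-3p and miR-669a-3-3p).

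Small RNA was sequenced from primary cultures of oligodendrocyte progenitor cells (OPCs), the dividing precursors of the oligodendrocytes that form myelin, prepared from the cortex of newborn wild-type C57BL/6 mice. Untreated OPCs (3 libraries) were compared with OPCs given 2.5 mg/mL of fibrinogen, the plasma protein that forms blood clots (3 libraries), to ask which miRNAs differ when the cells meet this protein. Both groups share the strain, the genotype and the culture, and neither the number of pups behind a library nor whether the libraries of one number share animals is stated, so p-values measure the spread between these libraries, which may be technical. In cultures of mixed cells, fewer cells of one type and less of a miRNA per cell cannot be told apart.

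A miRNA is cut from a hairpin precursor that can give a mature strand from each side, the 5p arm and the 3p arm, and its seed, the bases 2 to 8 of the mature strand, guides it to matching messenger RNAs. The Sfmbt2 cluster is found in rodents and was built by repeated duplication, so that many of its precursors are near copies of each other. Its host gene encodes a Polycomb group protein, is imprinted, and is expressed from the paternal allele in the early embryo and the placenta. The cluster is best known from mouse trophoblast and embryonic stem cells, and mice that lack it have placental defects. Outside the placenta, miR-669a has been described as a repressor of the muscle regulator MyoD in mouse cardiac progenitors, and miR-466l as a regulator of interleukin 10 in mouse macrophages.

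The annotation of the mouse genome GRCm39 (GENCODE) holds 82 precursors of these families. Of these, 72 lie in intron 10 of Sfmbt2 (chr2:10375306-10600064, plus strand), all on the strand of the host gene and within 51.6 kb (chr2:10471474-10523090). They are 5 precursors of miR-297, 24 of miR-466, 14 of miR-467 and 29 of miR-669. A miR-467, a miR-466 and a miR-669 precursor followed each other 12 times along the intron, with 502 to 518 bases from the first start to the last, and neighbouring copies of Mir467a started a median of 2462 bases apart (range 2413 to 4880). The other 10 precursors lie outside Sfmbt2. Precursors were matched to the miRNAs by name. By this match 49 of the 54 miRNAs have annotated precursors only in the Sfmbt2 intron. Another 3 (miR-297a-3p, miR-466f and miR-466f-5p) have precursors in and outside it, and 2 (miR-466q and miR-467h) have them only elsewhere.

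Mature sequences from RefSeq (GRCm38.p6) were matched for 2 of the 54 members, miR-466q and miR-467h, the same 2 with no annotated precursor in the Sfmbt2 intron, and both are shown. The seed is in capitals. miR-466q is at chr3:28419988-28420007 on the plus strand, and in the GRCm39 annotation its precursor Mir466q lies in an intron of Tnik, on the same strand. miR-467h is at chr9:115381898-115381919 on the plus strand, and its precursor Mir467h lies in an intron of the gene Gm69076, on the opposite strand. Their seeds differ.
miR-466q: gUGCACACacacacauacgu
miR-467h: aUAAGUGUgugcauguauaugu
Each of the 2 was listed with 1 read in all, miR-466q in untreated library 1 and miR-467h in untreated library 3. miR-466l-3p, whose only precursor lies in the intron, also had 1 read in all, in untreated library 1. Whether this is the read listed for miR-466q was not tested. Apart from miR-466q and miR-467h, all reads described here belong to miRNAs with at least 1 precursor in the intron.

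The table gives each miRNA in units its authors call TPM, which are reads scaled to a common library total (RPM), with no correction for length. Each library had 11897645 to 14847034 listed reads, so that 1 read was worth 0.0669 to 0.0841 TPM and a count of 0 allows up to 3 reads, or 0.201 to 0.252 TPM, from counting error alone. Between 937 and 1031 miRNAs were above 0 in a library. The 4 oligodendrocyte lineage miRNAs chosen as markers were all present, at a summed 12241 to 16643 TPM in untreated and 11450 to 14332 TPM in treated OPCs. The 4 neuronal markers were present at higher levels, 115258 to 122575 TPM in untreated and 91467 to 96834 TPM in treated OPCs. The 4 myeloid markers summed to 1566 to 2228 and 1384 to 1674 TPM, the 2 red blood cell markers to 149 to 567 and 121 to 138 TPM, the endothelial marker to 8231 to 10625 and 8505 to 10441 TPM, and the 2 mural cell markers to 2179 to 2581 and 2825 to 3866 TPM. Of the neuronal, red blood cell and mural markers the group ranges did not overlap, and the part of other cells in the values below was not tested.

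Of the 54 miRNAs, 52 had at least 1 read in some library, 34 had reads in all 6 libraries, and miR-466o-3p and miR-669a-3-3p were at 0 throughout. Summed over all 54, the level was 200, 337 and 250 TPM in untreated libraries 1 to 3 and 273, 291.1 and 350 TPM in fibrinogen-treated libraries 1 to 3. The 2 groups overlapped, and untreated library 2 was higher than 2 of the 3 fibrinogen-treated libraries. These sums are 0.0199% to 0.0355% of the listed TPM of a library. A like comparison is given by another large imprinted mouse cluster of the brain, that of miR-379 to miR-410, whose 62 listed miRNAs summed to 15176 to 16208 TPM in untreated and 16167 to 16849 TPM in treated OPCs. The miR-290 to miR-295 and miR-302 to miR-367 clusters, which mark pluripotent and early embryonic cells, had 6 entries that summed to 0.134 to 0.168 and 0.0719 to 0.163 TPM, under the limit that a count of 0 allows. Of 5 trophoblast and stem cell markers chosen, 1 was in the table, at 0 to 0.0792 TPM in untreated libraries and at 0 in the 3 fibrinogen-treated ones.

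The entries of these families were not separate measurements. Among the 32 members with at least 20 reads over the 6 libraries, 18 (56.25%) shared a profile with another member, the reads of one being equal to or an exact whole multiple of those of the other in all 6 libraries, so that the 32 hold 22 separate profiles. Among the 628 other known miRNAs with as many reads, 4 (0.637%) did. In most cases the multiple was the ratio of the numbers of annotated precursors. miR-467a-5p, with 10 precursors, had 10 times the reads of miR-467b-5p, with 1, in each library (800 against 80 in untreated library 1 and 900 against 90 in fibrinogen-treated library 1). miR-467a-3p was 10 times miR-467d-3p (10 precursors and 1), miR-669a-5p was 6 times miR-669p-5p (12 and 2), miR-669a-3p was 11 times miR-669o-3p (11 and 1), and miR-466c-3p was 3 times both miR-466e-3p and miR-466p-3p (3 and 1). Read numbers that repeat in this way do not tell which copy of the precursor gave the reads.

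There were exceptions to the ratio of precursor numbers. miR-297a-3p had 2 times the reads of miR-297b-3p and miR-297c-3p, against 4 precursors and 1 in the annotation. miR-466b-3p, with 8 precursors, had 7.50 to 7.60 times the reads of miR-466e-3p, so that most but not all of its reads followed the same profile. miR-466a-3p was at most 2 reads from miR-466e-3p and equal to it in 3 libraries. Of 15 members with several precursors and any reads, 12 had read numbers divisible by the precursor number in every library, the exceptions being miR-466b-3p, miR-466b-5p and miR-297a-3p. Among the members with at least 20 reads, pairs with equal reads in every library were miR-466e-3p and miR-466p-3p, miR-297b-3p and miR-297c-3p, miR-466d-5p and miR-466n-5p, and miR-466f and miR-466f-5p.

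**Figure D1:**
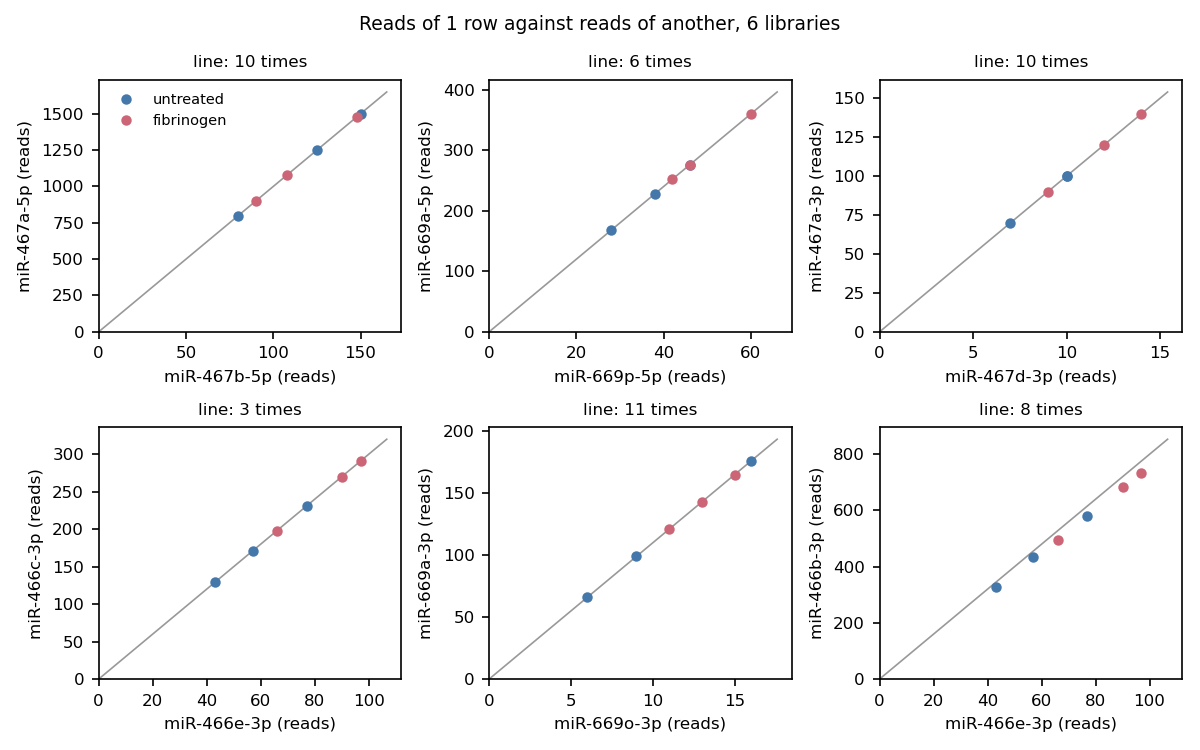
Reads of 1 member (vertical axis) against reads of a second member (horizontal axis) in the 3 untreated (blue) and 3 fibrinogen-treated (red) libraries, with a line through 0 at the multiple above each panel. Points lie on the line in the first 5 panels, and below the line of 8, the number of its precursors, for miR-466b-3p, whose ratio to miR-466e-3p was 7.50 to 7.60.

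Dividing each entry by the number of its precursors, which undoes a listing of the same reads under each of them, changed the order of the levels. The quotient is not the output of 1 precursor copy. As listed, the 3 highest were miR-467a-5p, miR-466b-3p and miR-669c-5p. After division, miR-669c-5p was highest at a mean of 31.9 TPM over the 6 libraries, followed by miR-467e-5p at 18.9 TPM, which ranked 5 as listed. Both have 1 precursor. miR-467a-5p and miR-467b-5p stood at 8.91 TPM, which is 80 to 150 reads in a library. The 5 miR-466 3p entries that were abundant enough to be tested stood at 5.20 TPM (miR-466b-3p) to 5.50 TPM (miR-466c-3p, miR-466e-3p and miR-466p-3p), the latter 43 to 97 reads in a library.

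Below these came miR-467c-5p at 3.09, miR-467d-5p at 2.47, miR-669a-5p and miR-669p-5p at 1.65, miR-669b-5p at 1.46 and miR-669d-5p at 1.40 TPM. Their ranges over libraries overlapped with those of their neighbours in this order. Of the second arms, miR-669a-3p stood at 0.881 and miR-467a-3p at 0.789 TPM after division, which is 6 to 16 and 7 to 14 reads in a library. On this scale, the lowest library of miR-669c-5p (24.5 TPM) was above the highest of miR-467e-5p (21.7 TPM), and the lowest of miR-467e-5p (16.2 TPM) was above the highest of miR-467a-5p (12.6 TPM). The ranges of miR-467a-5p (6.33 to 12.6 TPM) and miR-466c-3p (3.40 to 7.33 TPM) overlapped.

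**Figure D2:**
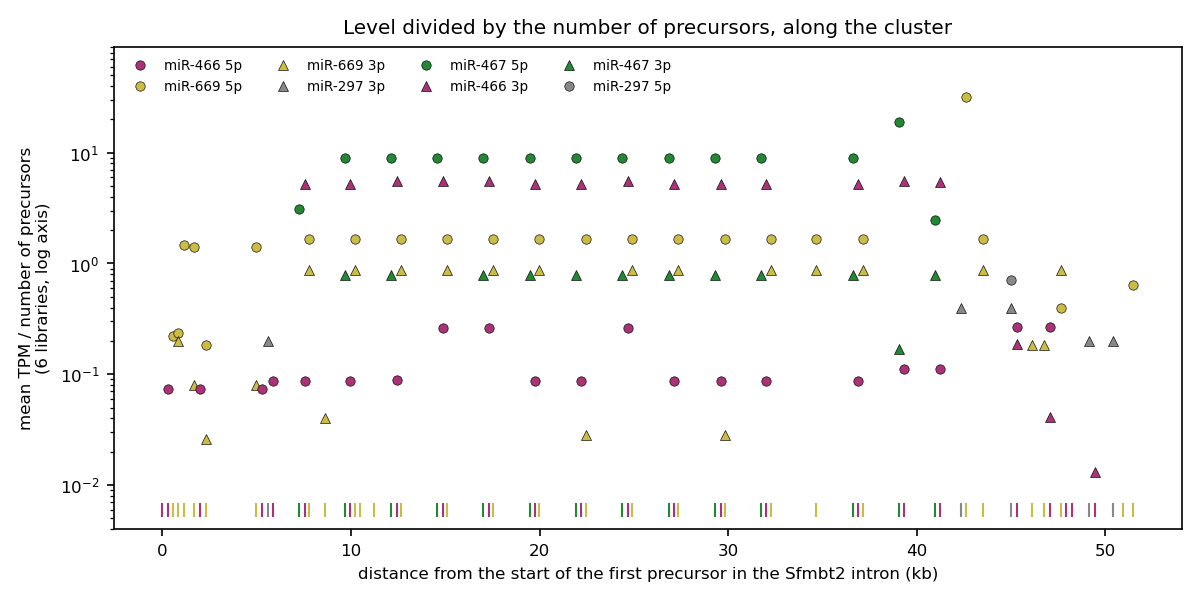
Mean TPM over the 6 libraries, divided by the number of annotated precursors of the entry (vertical axis, log scale), against the distance of the precursor from the first one in the Sfmbt2 intron (horizontal axis, kb), with 5p arms as circles, 3p arms as triangles, colours for families and a tick at the bottom for each of the 72 precursors. Copies that share a letter have the same value by construction, so the heights do not tell the output of single copies. This includes the 3p point at Mir669a-3, which is that of miR-669a-3p, although its own entry miR-669a-3-3p was at 0 in all libraries. The 2 highest points, miR-669c-5p at 31.9 TPM and miR-467e-5p at 18.9 TPM, belong to single precursors toward the far end of the tandem copies.

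The highest listed member was miR-467a-5p, at 63.3, 126 and 83.6 TPM in untreated libraries 1 to 3 and 67.2, 106 and 87.9 TPM in fibrinogen-treated libraries 1 to 3. The untreated libraries spanned the whole range of the treated ones. miR-467b-5p repeated this profile at a lower level, with 6.33, 12.6 and 8.36 TPM in untreated against 6.72, 10.6 and 8.79 TPM in treated OPCs. miR-467e-5p varied little, with 16.2, 21.7 and 18.6 TPM in untreated libraries and 16.3, 19.0 and 21.5 TPM in treated OPCs. The 3p arm miR-467a-3p had 7.92, 5.89 and 6.69 TPM in untreated against 8.96, 6.47 and 11.4 TPM in treated OPCs. It was lowest in untreated library 2, in which its 5p arm was highest.

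Of the miR-466 family, miR-466b-3p had 25.8, 48.7 and 29.0 TPM in untreated against 54.8, 35.6 and 55.5 TPM in treated OPCs. Fibrinogen-treated libraries 1 and 3 were above the untreated libraries, while fibrinogen-treated library 2 lay between untreated libraries 3 and 2. miR-466c-3p, at 10.2, 19.4 and 11.4 TPM against 21.7, 14.2 and 22.0 TPM, and miR-466e-3p and miR-466p-3p, each at 3.40, 6.48 and 3.81 TPM against 7.24, 4.74 and 7.33 TPM, had the same order, being multiples of one profile. miR-466a-3p, within 2 reads of it, ran from 3.40 to 6.39 TPM in untreated and from 4.74 to 7.24 TPM in treated OPCs.

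Of the miR-669 family, miR-669c-5p had 25.3, 30.9 and 28.4 TPM in untreated against 24.5, 31.8 and 50.4 TPM in treated OPCs. Its group means differed mainly through fibrinogen-treated library 3, and the lowest value was also in a treated library. miR-669a-5p had 13.3, 19.2 and 18.5 TPM in untreated against 20.6, 18.1 and 29.3 TPM in treated OPCs, and its multiple miR-669p-5p 2.22 to 3.20 and 3.02 to 4.88 TPM. miR-669a-3p had 5.23, 8.33 and 11.8 TPM in untreated against 10.7, 8.70 and 13.4 TPM in treated OPCs. The groups of all 4 overlapped.

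The remaining members at 1 TPM or more in at least 3 libraries were low. miR-467c-5p had 1.74, 3.20 and 3.01 TPM in untreated against 3.21, 3.45 and 3.91 TPM in treated OPCs, with each treated library above each untreated one, although untreated library 2 (38 reads) and fibrinogen-treated library 1 (43 reads) were close. miR-467d-5p ran from 1.68 to 2.67 TPM in untreated and from 2.02 to 3.34 TPM in treated OPCs, miR-669d-5p from 1.58 to 3.61 and from 1.34 to 3.91 TPM, and miR-669b-5p from 1.20 to 2.19 and from 0.970 to 1.73 TPM. These 3 overlapped between groups.

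**Figure D3:**
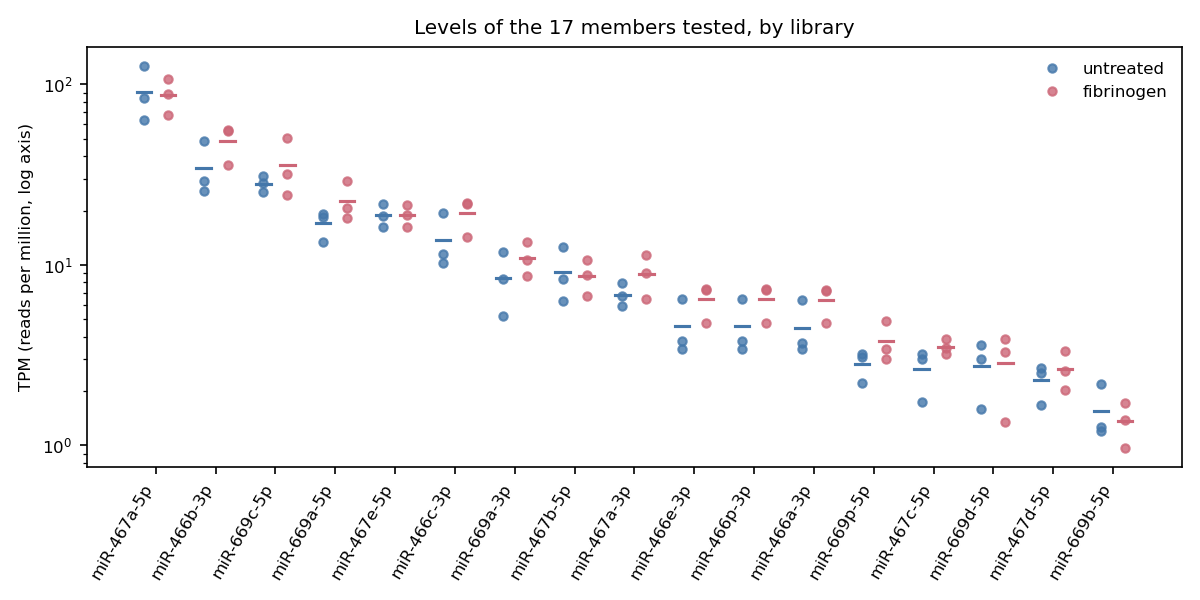
TPM (vertical axis, log scale) of the 17 members at 1 TPM or more in at least 3 libraries, with a point for each untreated (blue) and fibrinogen-treated (red) library and a bar for the mean of each group of 3. The points of the 2 groups overlap for all members but miR-467c-5p, at 1.74 to 3.20 TPM in untreated and 3.21 to 3.91 TPM in treated OPCs.

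The families did not keep fixed proportions. The miR-467 entries took 49.5%, 51.1% and 49.4% of the summed TPM of the 54 members in untreated libraries 1 to 3 and 38.6%, 51.3% and 39.4% in fibrinogen-treated libraries 1 to 3. The miR-466 entries took 24.1%, 26.6% and 22.0% in untreated and 37.3%, 23.6% and 29.4% in treated OPCs. Fibrinogen-treated library 2 thus had shares like those of the untreated libraries, and libraries 1 and 3 did not. The reads of miR-466b-3p were 0.408, 0.386 and 0.346 times those of miR-467a-5p in untreated and 0.816, 0.334 and 0.631 times in treated OPCs. These shares count repeated reads as listed.

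The arm that was listed differed between letters. Shares of the 5p arm were taken for the 10 letters whose 5p and 3p reads together came to at least 20 in every library. In the miR-467 family the 5p arm held 88.2% to 95.5% of the reads of miR-467a, 69.2% to 80% of those of miR-467d and 98.1% to 100% of those of miR-467e over the 6 libraries. In the miR-669 family it held 61.1% to 71.8% of the reads of miR-669a and 90.5% to 100% of those of miR-669p. In the miR-466 letters taken the 3p arm held nearly all reads, and the 5p share was 0% to 5.17% for miR-466a, 0.172% to 3.35% for miR-466b, 2.17% to 6.56% for miR-466c, 0% to 2.94% for miR-466e and 0% to 5% for miR-466p. Letters with fewer reads did not all follow their family. Over the 6 libraries, miR-466d had 21 reads of 5p and 15 of 3p, miR-466n 21 and 3, and miR-466o 7 and 0. miR-669o had 31 and 70, while miR-669d, miR-669e and miR-669l had more 5p reads.

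The ranges of the 5p share overlapped between untreated and fibrinogen-treated OPCs for each of these 10 letters. For miR-467a it was 92.3% ± 3.33 in untreated and 90.3% ± 3.40 in fibrinogen-treated OPCs, and for miR-669a 67.5% ± 5.69 and 67.3% ± 1.36 (SD, n = 3 each). Because reads of copies are shared between letters, the shares of miR-467a and miR-467d rest on the same 3p profile. Those of miR-669a and miR-669p rest on the same 5p profile. The shares of the miR-466 letters rest on 3p profiles that are equal, whole multiples of each other or nearly so.

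**Figure D4:**
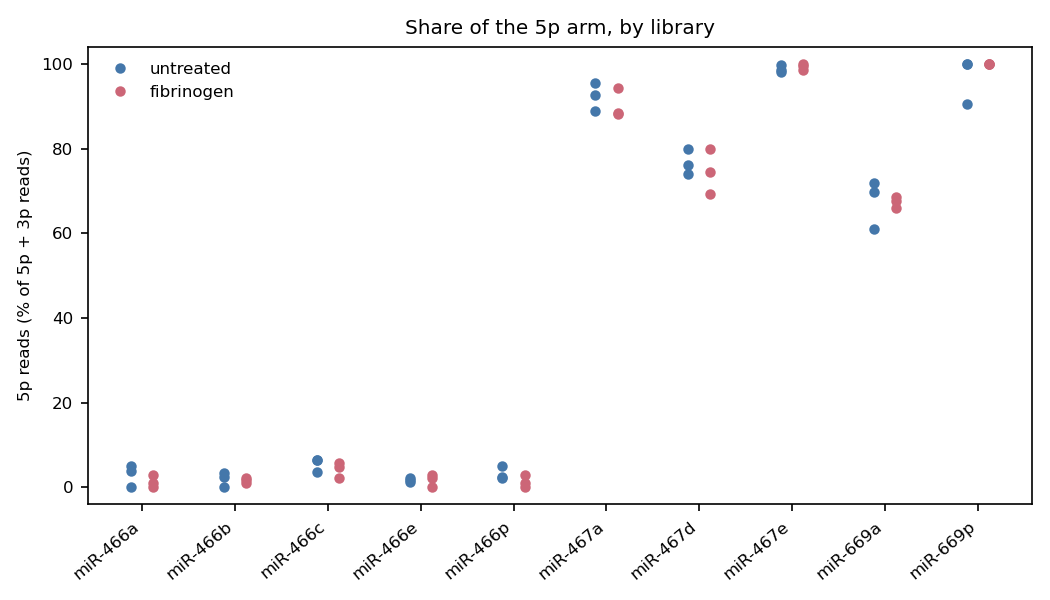
Share of 5p reads among the reads of both arms (vertical axis, %) for 10 precursor letters, with a point for each untreated (blue) and fibrinogen-treated (red) library. Points of miR-466 letters lie between 0% and 6.56%, and points of miR-467 and miR-669 letters between 61.1% and 100%, with the 2 groups overlapping at each letter.

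The groups were compared with limma, a linear model fitted over all 607 miRNAs that reached 1 TPM in 3 or more libraries, on log2(TPM + 1), a scale that understates the change of low miRNAs. A miRNA was called at a p under 0.05 after Benjamini-Hochberg adjustment over these 607. By this filter 17 of the 54 members were tested, 5 of miR-466, 6 of miR-467, 6 of miR-669 and none of miR-297, and they hold 13 separate profiles. In this number miR-466a-3p and miR-466b-3p, which nearly repeat miR-466e-3p, count apart from it. None of the 17 was called higher and none lower, beside 13 miRNAs called higher (2.14% of the 607) and 4 called lower (0.659%) with fibrinogen. At an unadjusted p under 0.05, 0 of the 17 members passed with limma, edgeR or DESeq2, beside 156 of all 607 miRNAs with limma (25.7%). In 1 member, miR-467c-5p, the 3 treated libraries were above the 3 untreated ones, beside 148 miRNAs of the 607 (24.4%), and in 0 members they were below, beside 53 miRNAs (8.73%).

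miR-466b-3p had the highest of the 17 log2 fold changes, at 0.51 ± 0.287 (SE, 95% interval -0.17 to 1.19, limma, adjusted p = 0.306), from 34.5 ± 12.4 TPM in untreated to 48.6 ± 11.3 TPM in treated OPCs (SD, n = 3 each). The other tested miR-466 members, miR-466c-3p, miR-466e-3p, miR-466p-3p and miR-466a-3p, had values of 0.49, 0.44, 0.44 and 0.45, and share most of their reads with it. Without untreated library 2, in which these miRNAs were highest among the untreated, all 5 had an unadjusted p under 0.05 with limma (smallest 0.0168), miR-466b-3p had a log2 fold change of 0.78, and the smallest adjusted p was 0.194. In that fit 21.1% of all 596 miRNAs tested had such an unadjusted p. Without fibrinogen-treated library 2, miR-466b-3p alone did, with an unadjusted limma p of 0.0499 and an adjusted p of 0.257, beside 18.9% of the 592 miRNAs tested. The remaining fits without 1 library gave miR-466b-3p lower log2 fold changes than the full fit. They were 0.34 and 0.42 without untreated library 1 or 3, and 0.41 and 0.40 without fibrinogen-treated library 1 or 3. Their adjusted limma p ran from 0.4435 to 0.5987. Median-of-ratios scaling, edgeR and DESeq2 gave 0.38, 0.33 and 0.34.

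For miR-467a-5p the log2 fold change was -0.03 ± 0.282 (SE, 95% interval -0.69 to 0.64, limma, adjusted p = 0.973), from 91.0 ± 32.1 to 87.2 ± 19.6 TPM (SD, n = 3 each). miR-467e-5p, which has a single precursor and the smallest SE of the 17, was at 0.01 ± 0.184 (95% interval -0.43 to 0.44, limma, adjusted p = 0.992), so that a change beyond these bounds was not found in the most precisely measured member. miR-467a-3p was at 0.32 (limma, adjusted p = 0.401), miR-467d-5p at 0.14 (0.70) and miR-467b-5p at -0.03 (0.973). For miR-467c-5p it was 0.33 ± 0.215 (limma, adjusted p = 0.363). The exact two-sided permutation test over the 6 libraries gave p = 0.1, the smallest that 3 against 3 libraries can give. That p is fixed by the lack of overlap between its groups and adds nothing to it.

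In the miR-669 family, miR-669a-5p was at 0.39 ± 0.236 (95% interval -0.17 to 0.94, limma, adjusted p = 0.333), from 17.0 ± 3.20 to 22.7 ± 5.88 TPM, and miR-669c-5p at 0.27 ± 0.265 (95% interval -0.36 to 0.89, adjusted p = 0.546), from 28.2 ± 2.81 to 35.5 ± 13.4 TPM (SD, n = 3 each). Without fibrinogen-treated library 3 the value of miR-669c-5p was -0.01. miR-669a-3p was at 0.38 (limma, adjusted p = 0.435), miR-669p-5p at 0.31 (0.383), miR-669d-5p at 0.02 (0.992) and miR-669b-5p at -0.10 (0.788).

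Of the 17 log2 fold changes, 14 (82.4%) were above 0 and 3 below, with a median of 0.32, beside 62.9% above 0 and a median of 0.13 over all 607 miRNAs. Median-of-ratios scaling, which removes a shift shared by most miRNAs, brought the median of all miRNAs to 0.00 and that of the members to 0.21, with 12 of 17 above 0. Without fibrinogen-treated library 3 the median of the members was 0.15, with 11 of 17 above 0, and without untreated library 1 it was 0.19, with 12 above 0. The other fits without 1 library went the other way. The median was 0.38 without untreated library 2 and 0.35 without fibrinogen-treated library 1, with 17 of 17 above 0 in each. It was 0.43 without fibrinogen-treated library 2, with 13 above 0, and 0.35 without untreated library 3, with 14 above 0. By family the medians were 0.45 for miR-466, 0.08 for miR-467 and 0.29 for miR-669, and by arm 0.08 for the 10 tested 5p entries and 0.44 for the 7 tested 3p entries, of which 5 are the miR-466 entries that share reads. No difference between families or arms was tested, since the entries are not separate measurements.

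**Figure D5:**
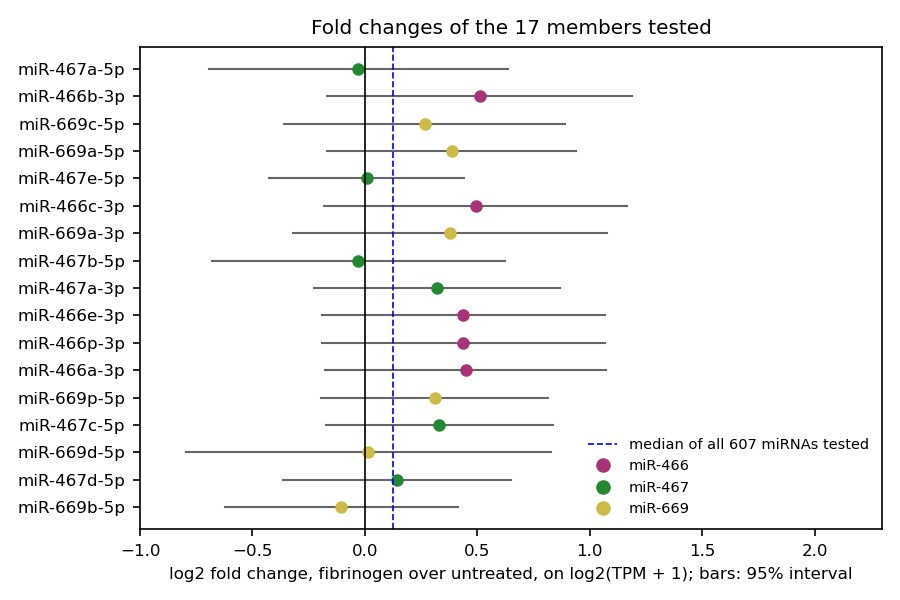
log2 fold change of fibrinogen-treated over untreated OPCs (horizontal axis, on log2(TPM + 1)) for the 17 members tested, with 95% limma intervals as bars, colours for families and a dashed line at the median of all 607 miRNAs tested, 0.13. All 17 intervals include 0, and the miR-466 members lie highest, at 0.44 to 0.51.

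The sums per group gave the same picture. The summed level of the 54 members was 263 ± 69.3 TPM in untreated and 305 ± 40.2 TPM in treated OPCs (SD, n = 3 each), a ratio of 1.16, or 0.22 on the log2 scale, less than the spread between libraries of a group (0.297 on the same scale). Without untreated library 2 it was 0.44 and without untreated library 1 it was 0.05. With each entry divided by its precursor number and exactly repeated profiles counted once, the sums were 69.7, 102 and 82.7 TPM in untreated against 82.7, 94.0 and 123 TPM in treated OPCs. These sums still count miR-466a-3p and miR-466b-3p, which nearly repeat the profile of miR-466e-3p, apart from it. The miR-466 entries summed to 48.2, 89.8 and 55.2 TPM in untreated against 102, 68.6 and 103 TPM in treated OPCs, the miR-467 entries to 99.1, 172 and 124 against 105, 149 and 138 TPM, and the miR-669 entries to 50.8, 70.9 and 70.1 against 64.0, 71.0 and 107 TPM. In each of the 3 families the groups overlapped.

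The other imprinted cluster, miR-379 to miR-410, had 56 of 62 entries tested, of which 0 were called with limma. Of the 56, 10 had an unadjusted limma p under 0.05, beside 156 of all 607 miRNAs (25.7%). Their median log2 fold change was 0.02 over the 56. Runs of alternating U and G of at least 8 bases, a feature known of some mature strands of the Sfmbt2 cluster, were looked for in the 1025 known miRNAs of the table with a RefSeq mature sequence, among them only 2 of the 54 members, and were found in 4 (0.39%). Those 4 are of other families, and the 1 of them that was tested, miR-672-5p, had a log2 fold change of 0.19 (limma, adjusted p = 0.521).

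The 37 members under the filter had a median of 15 reads over all 6 libraries, and 22 of them had fewer than 20. The highest by mean was miR-669o-3p, at 0.881 TPM, which repeats miR-669a-3p. All 4 miR-297 members were among them. miR-297a-3p, the most abundant of that family, had 0.792, 1.51 and 0.535 TPM in untreated against 0.747, 0.719 and 0.488 TPM in treated OPCs, and miR-297b-5p had 0.554, 1.18 and 0.401 against 0.523, 0.863 and 0.733 TPM. Both were highest in untreated library 2, and the groups overlapped. The most abundant 5p entry of miR-466, miR-466c-5p, had 0.713, 0.757 and 0.802 TPM in untreated against 1.12, 0.863 and 0.488 TPM in treated OPCs, with the lowest and the highest value both in treated libraries.

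miR-466f and miR-466f-5p, which are equal in every library, had 0, 0 and 4 reads in untreated and 8, 8 and 4 reads in fibrinogen-treated OPCs, or 0, 0 and 0.267 against 0.597, 0.575 and 0.326 TPM. All of these read numbers are multiples of 4, the number of their precursors, and come to 0, 0 and 1 against 2, 2 and 1 after division by it. Without the filter on low levels these 2 of the 52 members tested, which hold 1 profile, had an unadjusted p of 0.0107 with limma and an adjusted p of 0.228. The share of all 1410 miRNAs in that fit with an unadjusted p under 0.05 was not computed. No difference could be detected from so few reads.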

How the data were processed

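Small RNA libraries of 3 untreated and 3 fibrinogen-treated OPC cultures were analysed. As described by the authors, reads were filtered, trimmed with cutadapt 1.15, freed of duplicates, mapped with Bowtie 1.1.2 and assigned to miRBase and predicted miRNAs with miRDeep2. The study's methods name GRCm39 as the genome and the labels mm10. The deposited values, called TPM, are RPM (reads scaled to a common library total, not corrected for length). Division by the value of 1 read gave whole numbers, within 0.1, for 99.8% to 100% of values. A read that matched several precursors appears to have been listed for each, which raises levels and, through the added 1, moves fold changes of low miRNAs a little.

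Of 1198 known and 308 predicted miRNAs, those that reached 1 TPM in 3 or more libraries were tested on log2(TPM + 1) by limma 3.58.1 (eBayes with trend) in R 4.3.3 with Benjamini-Hochberg adjustment. The tests were checked on simulated data. Alternatives were median-of-ratios scaling, a pseudocount of 0.1 or 5, the filter left out or raised to 10 TPM, edgeR 4.0.16 and DESeq2 1.42.0 on the recovered reads, identical entries counted once, a replicate block, leaving out each library, and, for the summed level, division by precursor number. The last was chosen after seeing the data. The members and lists were chosen with earlier results of these data known. All members past the filter are named, with each library's value for the 10 highest and for the most abundant of each family and arm, and up to 4 of those under it. Those further named were chosen for shared reads, for their arm, for their position or for being at 0, after their values were seen. Precursor positions come from GENCODE vM39, with Mir466 taken as the precursor of miR-466a and Mir297-1 as one of miR-297a.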

Additional observations from a re-analysis of the deposited data

How the results depend on the processing

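No member was called under any of the alternatives run, the smallest adjusted p of a member being 0.186 to 0.599 over them, with limma except where edgeR (0.536) or DESeq2 (0.489) is named. DESeq2 gave no adjusted p for 5 members (miR-669p-5p, miR-467c-5p, miR-669d-5p, miR-467d-5p and miR-669b-5p), so it could call only the other 12. Of 244 recomputed log2 fold changes of the 17 members, 226 kept their sign and 18 did not, all in 6 members whose value was near 0 or rested on 1 library. miR-467e-5p turned to -0.12 with median-of-ratios scaling, -0.15 with edgeR and -0.14 with DESeq2, and miR-669d-5p to -0.077, -0.10 and -0.085. Over fits that each left out 1 library, miR-467e-5p ran from -0.091 to 0.11, miR-669d-5p from -0.23 to 0.34, miR-467a-5p from -0.26 to 0.23, miR-467b-5p from -0.24 to 0.21, miR-669b-5p from -0.21 to 0.066 and miR-669c-5p from -0.011 to 0.49, and the log2 ratio of the summed level from 0.05 to 0.44. That ratio was 0.08 with median-of-ratios scaling.

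Libraries of both groups carry the numbers 1 to 3, and column headers number them by mouse, which is not stated to mean shared animals. Deviations from the group means of libraries with the same number correlated at 0.0377, 0.233 and 0.124. Each fibrinogen-treated library correlated best with the untreated library of its own number, as did untreated libraries 2 and 3 in turn. Untreated library 1 correlated best with fibrinogen-treated library 3, at 0.0876. The libraries were not taken as paired because the labels do not state shared animals. With a replicate block 0 members were called higher and 0 lower by limma. A correction for GC content of the hairpin, alone or with the block, was not run, because a RefSeq hairpin was matched for any precursor of only 2 of the 54 members, which voids it. Depth limits the 37 untested members, of which 22 had fewer than 20 reads over 6 libraries.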
